A study of Mus musculus with 9 samples.

Results

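The axon guidance ligands and receptors of mouse MLL-ENL leukemia cells were followed through ChIP-seq of H3K27me3 and H3K4me3. The 66 genes were chosen by symbol, out of 26611 named genes, as the members of 8 families: semaphorins (Sema, 20 genes), plexins (Plxn, 9), Eph receptors (Eph, 14), ephrins (Efn, 8), Slits (3), Robos (4), netrins (Ntn, 4) and Unc5 receptors (4). The choice used symbols only and no measured value, but it was made with earlier results of these data known. All libraries came from leukemia cells transformed by MLL-ENL, an oncogenic fusion protein that joins parts of MLL and ENL. The 9 libraries are 3 immunoprecipitations, for either histone mark or with the anti-Flag antibody M2, in each of 3 genotypes. The floxed line carries the label "fl", the deleted line "ΔERT2", and the line called rescue here "ΔERT2 + Hhex-F", which is the deleted line with Flag-tagged Hhex. The labels name neither the floxed gene nor the agent or Cre line behind ΔERT2; the series title points to Hhex, and they do not say whether each line is 1 clone or a pool. With 1 library for each antibody and genotype there is no replicate check, and no difference between genotypes was tested. Intervals are 95% intervals of counting error only.

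Axon guidance cues steer growing nerve fibres, and the same proteins act on blood vessels and immune cells. Semaphorins signal mainly through plexins, membrane-anchored ephrins through the Eph receptor tyrosine kinases, Slits through Robo receptors, and netrins through Dcc-type and Unc5 receptors. Many of these genes are silent outside the nervous system, and developmental genes of this kind are well-known targets of Polycomb repressive complex 2 (PRC2), which places H3K27me3. H3K4me3 is a mark of active promoters, and promoters that carry both marks are called bivalent.

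Promoters of 6 genes on which the results below turn are shown first, 250 bases before to 50 bases after the annotated start, 5′ to 3′ on the gene's strand, from RefSeq (GRCm38.p6, the assembly of mm10). Capitals mark CG dinucleotides. Plxna2 (chr1:194619579-194619878, plus strand, 25 CG), Sema5a (chr15:32244563-32244862, plus strand, 23 CG) and Slit2 (chr5:47982905-47983204, plus strand, 30 CG) are shown because their H3K4me3 windows differed between libraries. Epha2 (chr4:141300971-141301270, plus strand, 10 CG) and Ephb1 (chr9:102354644-102354943, minus strand, 14 CG) are shown for their H3K27me3. Sema4d (chr13:51756634-51756933, minus strand, 2 CG) is shown for lower H3K27me3 in the rescue library and as a promoter with few CG dinucleotides. The starts listed for Slit2 and Sema4d lie inside their RefSeq spans.
Plxna2: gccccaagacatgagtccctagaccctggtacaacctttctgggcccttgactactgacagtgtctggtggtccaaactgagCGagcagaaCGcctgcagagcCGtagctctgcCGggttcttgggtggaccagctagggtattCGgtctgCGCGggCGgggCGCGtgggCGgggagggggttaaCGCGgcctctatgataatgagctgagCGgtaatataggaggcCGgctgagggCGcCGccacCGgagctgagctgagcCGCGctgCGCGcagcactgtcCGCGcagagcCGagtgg
Sema5a: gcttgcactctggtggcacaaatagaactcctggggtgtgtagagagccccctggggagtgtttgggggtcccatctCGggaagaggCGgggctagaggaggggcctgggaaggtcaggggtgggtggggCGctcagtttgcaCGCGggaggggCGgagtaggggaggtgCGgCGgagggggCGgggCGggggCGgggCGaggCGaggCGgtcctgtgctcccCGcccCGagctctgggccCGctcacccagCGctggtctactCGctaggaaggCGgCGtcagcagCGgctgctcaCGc
Slit2: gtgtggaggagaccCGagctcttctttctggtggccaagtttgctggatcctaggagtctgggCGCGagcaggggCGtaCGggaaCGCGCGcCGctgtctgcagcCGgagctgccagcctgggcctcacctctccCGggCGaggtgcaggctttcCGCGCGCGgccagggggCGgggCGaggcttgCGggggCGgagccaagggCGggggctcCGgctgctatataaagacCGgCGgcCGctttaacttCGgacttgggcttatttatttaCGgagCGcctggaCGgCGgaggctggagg
Epha2: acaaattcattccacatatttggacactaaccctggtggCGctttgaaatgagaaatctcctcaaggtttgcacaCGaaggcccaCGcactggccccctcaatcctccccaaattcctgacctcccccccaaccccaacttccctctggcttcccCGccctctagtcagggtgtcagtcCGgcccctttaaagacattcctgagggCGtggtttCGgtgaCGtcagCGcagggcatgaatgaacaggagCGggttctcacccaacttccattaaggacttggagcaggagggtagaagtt
Ephb1: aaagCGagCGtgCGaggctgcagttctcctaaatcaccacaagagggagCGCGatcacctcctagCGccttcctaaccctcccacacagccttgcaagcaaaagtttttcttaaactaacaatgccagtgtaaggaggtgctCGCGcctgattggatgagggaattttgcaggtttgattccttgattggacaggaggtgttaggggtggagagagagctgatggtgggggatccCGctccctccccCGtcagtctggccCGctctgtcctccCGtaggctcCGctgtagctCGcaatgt
Sema4d: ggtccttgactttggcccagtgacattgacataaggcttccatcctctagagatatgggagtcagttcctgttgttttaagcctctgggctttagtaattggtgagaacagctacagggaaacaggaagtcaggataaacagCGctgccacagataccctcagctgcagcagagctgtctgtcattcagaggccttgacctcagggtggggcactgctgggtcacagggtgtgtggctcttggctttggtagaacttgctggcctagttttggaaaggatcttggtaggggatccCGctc

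H3K27me3 was counted per gene, with the deposited gene length as span. At some genes this length is well below the RefSeq interval, as at Robo1, Robo2 and Sema6d (57.5 kb, with an interval of 124089943 to 124667789). H3K4me3 was counted in 1 narrow window per gene, whose place relative to the start site no source used here states. The H3K27me3 libraries held 2444487 to 4203349 counts in named genes and the H3K4me3 libraries 395133 to 645240, so the second mark was measured with less precision. A gene counts as measured for a mark when its 3 libraries averaged 20 counts or more. Levels are in CPM, counts scaled to the total of the library, and for H3K27me3 in CPM per kb of span. Of myeloid and progenitor markers, 10 of 15 were measured for H3K4me3 (Mpo, Elane, Spi1 and Cebpa among them), with a summed level of 1333 to 1525 CPM; the window of Ptprc held 0 counts. Neuronal markers summed to 97.6, 143 and 144 CPM in floxed, deleted and rescue over 9 genes, of which 2 (Map2 and Tubb3) were measured and Rbfox3, Dcx and Gap43 were at 0 in every library. Endothelial markers summed to 41.8, 121 and 63.3 CPM over 6 genes in floxed, deleted and rescue, fibroblast markers to 96.1, 109 and 78.5 over 6, Schwann and glial markers to 112, 85.6 and 73.4 over 4, T-cell and B-cell markers to 13.9, 40.4 and 17.7 over 5, and erythroid markers to 26.3, 14.3 and 22.8 over the 2 of 3 found.

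Of the 66 genes, 62 were measured for H3K27me3 (93.9%, beside 39.8% of all named genes); Sema4a, Plxna3, Plxnb3 and Epha1 were not. Being measured does not show enrichment, since counts were summed over the span with no input library and long genes passed at low density, such as Robo2 at 0.143 CPM per kb. Their density ran from 0.143 to 17.9 CPM per kb, with a median of 1.82 beside 1.67 for all 10604 measured genes. In the top 3 deciles of all measured genes by density, above 3.15 CPM per kb and called dense here, lay 25 of the 62 (40.3%), 5 of them in the top decile. In the lowest 3 deciles lay 14. The density is an average over the whole span, and it fell with span length both here (Spearman's rho -0.68 across 62 genes) and across all measured genes (-0.63), as a description.

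**Figure D1:**
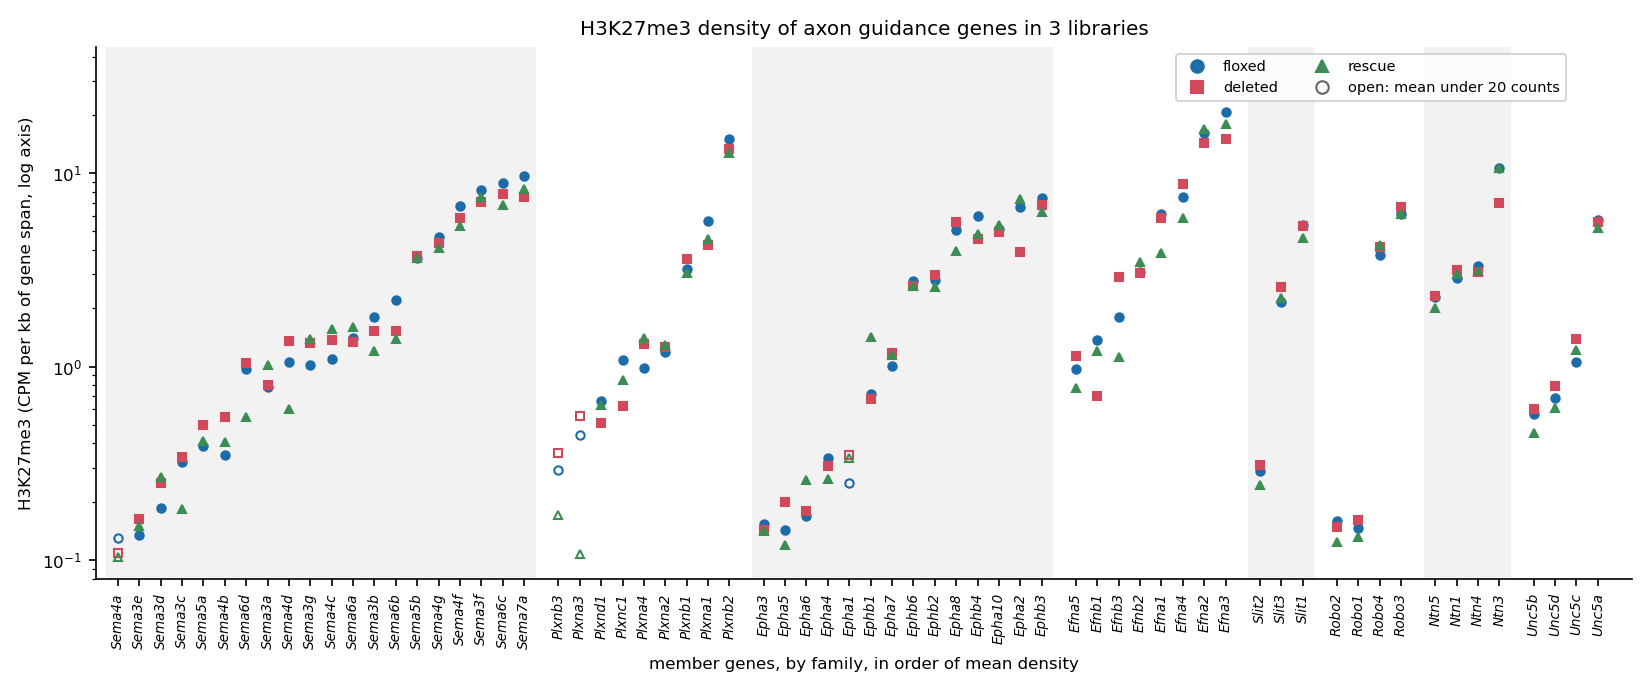
H3K27me3 in CPM per kb of gene span (log axis) for all 66 genes, by family and in order of mean density, with 1 point per library (floxed, deleted, rescue). Open symbols are the 4 genes that were not measured. Epha2, Efnb1, Ntn3, Ephb1, Sema4d, Sema3c and Sema6d are among the genes whose points stand apart.

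Among ligands, the ephrins held the densest genes. Efna3, a membrane-anchored ligand of EphA receptors, had 20.8, 15.0 and 18.0 CPM per kb in floxed, deleted and rescue, and Efna2 16.1, 14.4 and 16.9. Efna5, with a span of 278 kb, was the sparsest ephrin at a mean of 0.958. Among the semaphorins, Sema7a, an anchored semaphorin known in immune cells, had 9.72, 7.58 and 8.31 CPM per kb, whereas Sema4a, another immune semaphorin, had 8, 7 and 11 counts over 25.2 kb and was the sparsest of the family. Ntn3 (mean 9.43) and Ntn5 (2.22) marked the ends of the netrins, and Slit1 (5.11) and Slit2 (0.281) those of the Slits. RefSeq places Sec1 over 10381 bp of Ntn5, nearly all of its interval, so reads there cannot be assigned to Ntn5 alone.

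Receptors showed the same spread. Plxnb2, a receptor for class 4 semaphorins, had 15.1, 13.3 and 12.8 CPM per kb, the highest of the plexins, and its H3K4me3 window held 2, 1 and 3 counts. Plxnb3 was the sparsest plexin gene (mean 0.273). Ephb3 was the densest Eph receptor (mean 6.88) and Epha3 the sparsest (0.146). Robo3, which acts in midline crossing of axons, had a mean of 6.33, and its neighbour Robo4, the endothelial Robo gene 2.02 kb away, 4.06. Robo1 and Robo2, with counted lengths of 383 kb and 519 kb, shorter than their RefSeq intervals, lay at 0.147 and 0.143. Unc5a (5.50) and Unc5b (0.543) were the densest and sparsest Unc5 receptors.

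In the deleted library, H3K27me3 was lower at 4 of the 62 genes and higher at none. These were the Eph receptor gene Epha2, the plexin gene Plxnc1, the netrin gene Ntn3 and the ephrin gene Efnb1, at CPM ratios of 0.516 to 0.658 to the floxed library. A call needed a CPM ratio of at least 1.5 in its direction and an interval that excluded 1. By this rule 5.39% of all measured genes were lower and 4.72% higher, so the share of lower genes in the families (6.45%) was near that of all genes. The median log2 ratio was 0.02 for the 62 genes and 0.02 for all measured genes, with 30 below 0 and 32 above. In a bulk library, fewer cells with the mark and less of it per cell cannot be told apart.

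Epha2 encodes a receptor for ephrin-A1 (chromosome 4, 141301221 to 141329384). It had 459, 279 and 876 H3K27me3 counts in floxed, deleted and rescue, or 6.67, 3.91 and 7.40 CPM per kb. The deleted library was the low one: deleted stood at 0.586 times floxed (0.503 to 0.682), and rescue at 1.89 times deleted (1.65 to 2.18). Rescue against floxed was 1.11 (0.990 to 1.25), not a call. The nearest measured genes on either side were Arhgef19 and Fam131c. Their deleted levels were 0.725 (0.639 to 0.822) and 0.780 (0.679 to 0.895) times floxed. In rescue against deleted they stood at 1.34 and 1.21, with intervals that also excluded 1. Neither was called in any comparison, but both moved in the same directions as Epha2, by less. The H3K4me3 window of Epha2 held 73, 59 and 48 counts, and the deleted level was 1.24 times the floxed one (0.864 to 1.77), not a call.

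Plxnc1 encodes the receptor of Sema7a and of viral semaphorins (chromosome 10, 94790866 to 94945015). It had 407, 243 and 551 counts, or 1.08, 0.623 and 0.853 CPM per kb, so that deleted stood at 0.576 times floxed (0.489 to 0.676) and rescue at 1.37 times deleted (1.17 to 1.60). The deleted library was again the lowest, and the rescue library lay between the others at a ratio of 0.787 (0.691 to 0.897) to floxed. Its ligand gene Sema7a had 540, 437 and 794 counts and was not called in any comparison.

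Ntn3, a netrin gene of small span (5.56 kb on chromosome 17), had 145, 99 and 247 counts. The deleted library was lowest, at 0.658 times floxed (0.505 to 0.856), and rescue against deleted gave 1.51 (1.19 to 1.92), just past the size needed. RefSeq places Tbc1d24 over 1732 bp of this span, so reads there cannot be assigned to Ntn3 alone. Efnb1, a transmembrane ephrin gene on chromosome X, had 43, 23 and 65 counts, and its ratios of 0.516 (0.297 to 0.875) and 1.70 (1.05 to 2.87) rest on few counts. Epha2, Ntn3 and Efnb1 were thus lower in deleted than in floxed and higher in rescue than in deleted; 2.28% of all measured genes took this course, and both comparisons share the deleted library.

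The remaining 58 genes had log2 ratios between -0.52 and 0.66 in deleted against floxed. Efna3, at the dense end, had a ratio of 0.718 (0.617 to 0.836) and Slit3, which spans 587 kb, one of 1.20 (1.14 to 1.25); both intervals excluded 1 without reaching the size of a call. Across the 62 genes the log2 ratio fell with density (Spearman's rho -0.42), and across all 10604 measured genes the rho was -0.30. In the top 3 deciles of density, 19 of 25 genes lay below 0 with a median of -0.11, beside -0.19 for all genes there. In the other deciles, 26 of 37 lay above 0 with a median of 0.10, beside 0.11. These medians were close to those of all genes.

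**Figure D2:**
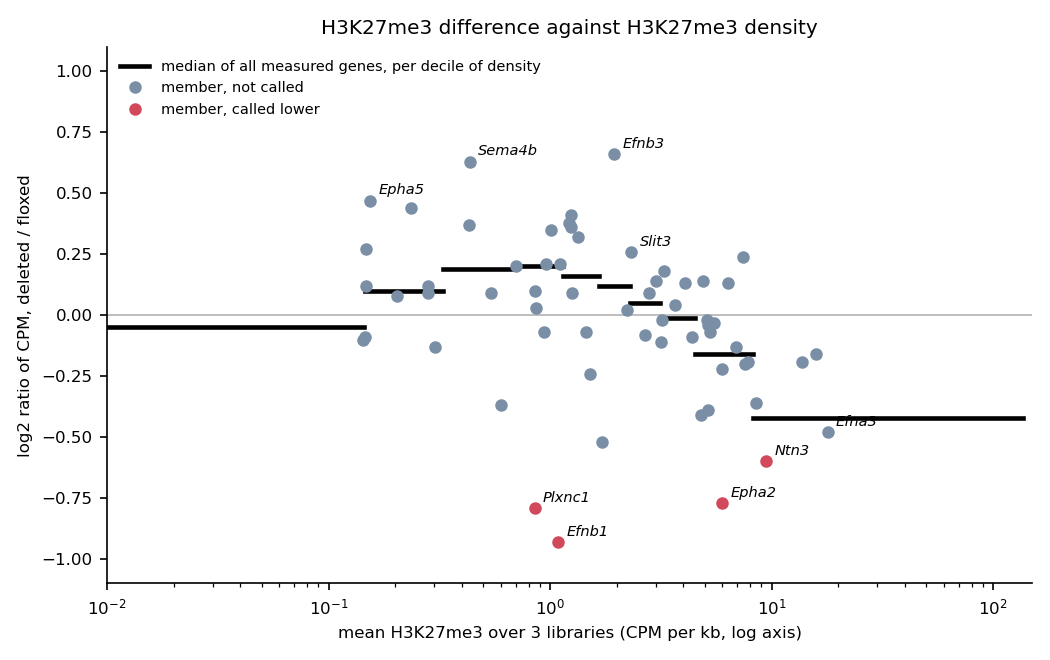
Log2 ratio of H3K27me3 CPM, deleted over floxed, against mean density in CPM per kb (log axis) for the 62 measured genes; black bars are medians of all measured genes in each decile of density. The bars fall from 0.20 in decile 4 to -0.42 in decile 10, and Plxnc1, Efnb1, Epha2 and Ntn3 lie lowest among the points.

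With Flag-tagged Hhex, H3K27me3 was higher than in the deleted library at 4 genes (7.07% of all measured genes were) and lower at 7 (11.3% of all). Ephb1, Epha2, Efnb1 and Ntn3 were the higher ones. The lower ones were Sema3c, Sema4d, Sema6d, Efna1, Efna4, Efnb3 and Epha5. The median log2 ratio was -0.10 for the 62 genes and -0.06 for all measured genes.

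Ephb1, which encodes a receptor for ephrin-B ligands (chromosome 9, 101922128 to 102354693), had 759, 749 and 2594 counts, or 0.718, 0.683 and 1.43 CPM per kb. Floxed and deleted were close (0.951 for their ratio, 0.859 to 1.05), and the rescue library stood above both with ratios of 2.09 (1.93 to 2.27) to deleted and 1.99 (1.83 to 2.16) to floxed. It was the 1 gene of the 62 called above both other libraries, as were 3.27% of all measured genes. The measured neighbours Ppp2r3a and Ky, 670.3 kb and 151 kb away, had ratios of 0.709 and 1.06 to deleted and were not called. The H3K4me3 window of Ephb1 held 0 counts in every library, below the limits of 4.65, 7.13 and 7.59 CPM that 0 counts allow in floxed, deleted and rescue.

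Epha6, a receptor gene with a 952 kb span, had 394, 433 and 1042 counts. Its ratio to floxed was 1.54 (1.37 to 1.73), a call, and that to deleted 1.45 (1.30 to 1.63), just short of one. The ratio to deleted became a call with TMM scaling, with scaling to sparse genes and with centring by density decile. Epha5, another EphA receptor gene, went the other way with 127, 183 and 181 counts; its rescue level was 0.597 times the deleted one (0.483 to 0.737). The Eph receptors as a family held 0.213%, 0.208% and 0.243% of all H3K27me3 counts in floxed, deleted and rescue (Wilson intervals 0.207% to 0.219%, 0.202% to 0.213% and 0.238% to 0.248%). Ephb1 alone went from 759 and 749 to 2594 counts, and most of the family did not follow it: 8 of its 13 measured genes lay below 0 in rescue against either other library, with median log2 ratios of -0.02 to deleted and -0.11 to floxed.

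The semaphorins called for H3K27me3 in the rescue library were all lower by the main rule. Of the 19 measured, 12 lay below 0 and 7 above against deleted, and 10 below and 9 above against floxed. Sema4d, the plexin-B ligand known as CD100 on lymphocytes, had 239, 317 and 235 counts, with ratios of 0.447 (0.376 to 0.531) to deleted and 0.572 (0.476 to 0.688) to floxed. Sema3c, a secreted ligand for neuropilin and plexin receptors, had 122, 135 and 120 counts and ratios of 0.536 (0.416 to 0.691) and 0.572 (0.441 to 0.742). Sema6d, a transmembrane ligand of plexin A1, had 137, 152 and 133 counts and ratios of 0.528 (0.415 to 0.671) and 0.565 (0.441 to 0.722). In these 3 genes the rescue library was the low one, and deleted exceeded floxed by a ratio of at most 1.28 (Sema4d). With Efna1 they made 4 of the 62 genes called below both other libraries, a course taken by 5.27% of all measured genes. Sema3b and Sema6b were lower than floxed alone, at 0.665 (0.445 to 0.996) and 0.632 (0.472 to 0.846). The Sema3b call was lost with TMM and with DESeq2 scaling, where its log2 ratio was -0.53 and -0.56 in place of -0.58. Sema3d went the other way, at 1.46 times floxed (1.14 to 1.87). It was called higher with TMM scaling and with centring by density decile. Lsmem2 overlaps Sema3b by 317 bp.

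The ephrin genes Efna1, Efna3 and Efna4 lie next to each other on chromosome 3, with gaps of 32.9 kb and 10.5 kb, and moved unequally. Efna1 had 139, 137 and 150 counts, and its rescue level was 0.660 times deleted (0.520 to 0.839) and 0.628 times floxed (0.495 to 0.796). Efna4, at 85, 104 and 114 counts, stood at 0.661 times deleted (0.502 to 0.871). Efna3, between them, had 404, 301 and 599 counts, and rescue stood at 1.20 times deleted (1.04 to 1.38). The calls of Efna1 and Efna4 against deleted were lost with TMM or DESeq2 scaling and with scaling to sparse genes, where their log2 ratios were -0.47 to -0.55 in place of -0.59. Efnb3 had 27, 45 and 29 counts, and rescue stood at 0.389 times deleted (0.235 to 0.634).

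Against the floxed library, the rescue library was lower at 6 of the 62 genes (8.05% of all measured genes) and higher at 2 (5.72% of all). Of the 6, 5 were semaphorins, Sema3b among them, and the other was Efna1; the 2 were Ephb1 and Epha6. Median log2 ratios were -0.13 for the 62 genes and -0.05 for all measured genes. Plexins, Slits, Robos, netrins and Unc5 receptors had no call here, and in rescue against deleted Ntn3 was the 1 call among these families.

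**Figure D3:**
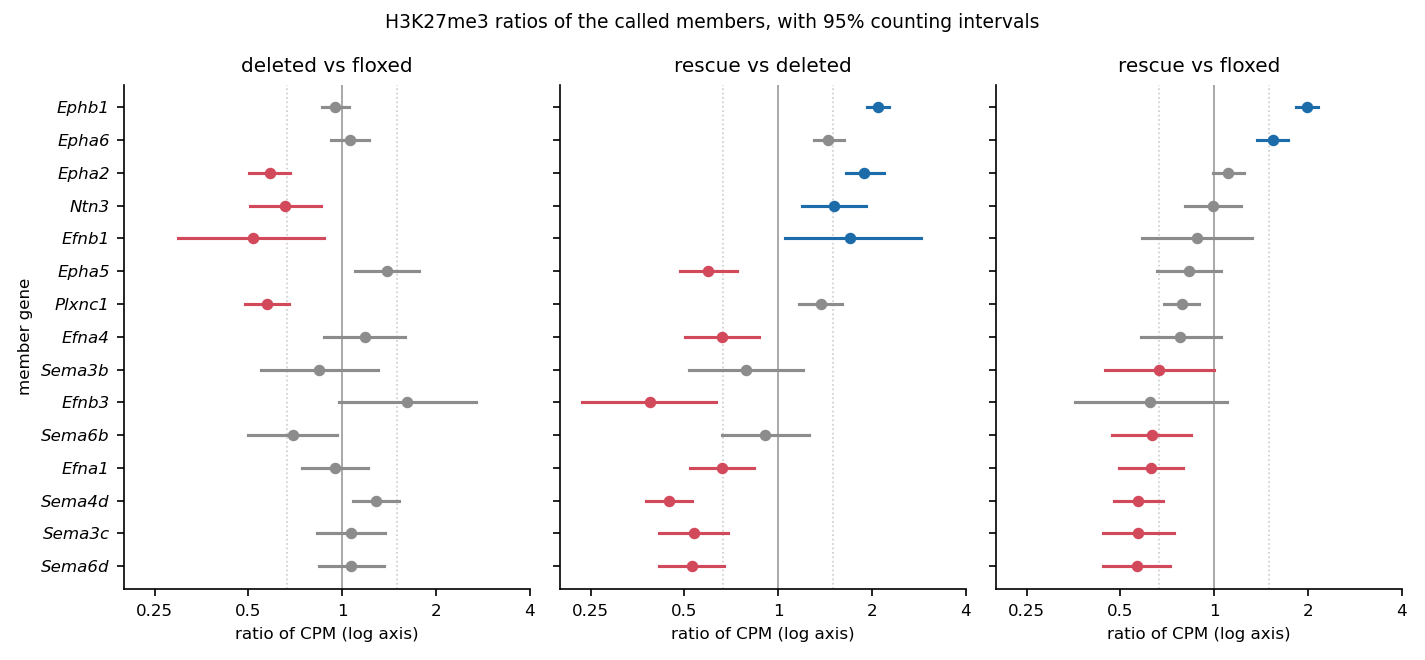
H3K27me3 CPM ratios (log axis) with 95% counting intervals for the 15 genes called in any comparison; red is lower, blue is higher, grey is not called, and dotted lines mark a ratio of 1.5 in either direction. Epha2, Ntn3 and Efnb1 are low in the left panel and near 1 in the right panel, and Ephb1 stands at 2.09 and 1.99 in the middle and right panels.

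H3K4me3 was found at fewer of these genes. Of the 66, 17 were measured (25.8%, beside 25.1% of all named genes), 39 had at most 5 counts in every library and 14 had 0 in all 3. Ntn4, a netrin of basement membranes, had the highest mean at 282 CPM, followed by Plxnb1 (252), Epha7 (219.5), Unc5a (203) and Efna2 (201). Sema7a (186), Sema4g (176), Ephb6 (152), Epha2 (125) and Plxna2 (103) came next. No Robo gene was measured. Because the windows are narrow and of unknown position, a low count does not show that a gene lacks the mark elsewhere.

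Of the 25 genes in the top 3 deciles of H3K27me3 density, 8 were also measured for H3K4me3 (32.0%, beside 22.6% of all such genes): Efna2, Epha2, Ephb3, Ntn4, Plxnb1, Sema4g, Sema7a and Unc5a. Efna2 had 188, 223 and 192 CPM of H3K4me3 in floxed, deleted and rescue at a mean H3K27me3 of 15.8 CPM per kb. Sema7a had 172, 190.2 and 195 at 8.54. Both marks were thus found in the same cell population, which does not show that they sit on the same chromosomes.

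Summed over all 66 windows, H3K4me3 made up 0.251% (Wilson interval 0.239% to 0.263%), 0.300% (0.284% to 0.317%) and 0.229% (0.214% to 0.244%) of the counts in floxed, deleted and rescue. The deleted library was thus the highest, with an interval apart from both others, while the same genes held 1.12%, 1.16% and 1.13% of H3K27me3 counts. The 12700 sparse windows of the whole table, used for the sparse scaling, moved likewise, with 2.76%, 3.27% and 2.97% of H3K4me3 counts. They too held their largest share in the deleted library, and their part in the sum over the 66 genes was not tested. Semaphorins held 0.0601%, 0.0758% and 0.0531% of H3K4me3 counts, plexins 0.0395%, 0.0518% and 0.0390%, and Slits 0.00387%, 0.0112% and 0.00405%. Netrins departed from this order, with 0.0335%, 0.0273% and 0.0273%, most of it in Ntn4.

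In the deleted library 3 of the 17 measured genes were higher in H3K4me3 than in floxed (3.02% of all measured genes were) and 0 were lower (4.39% of all). These were Plxna2, Slit2 and Sema5a, all with spans over 100 kb. Of all measured genes with such spans, 4.73% were higher and 2.36% lower. The median log2 ratio was 0.30 over the 17, with 14 above 0, beside -0.03 over all 6681 measured genes. For the 8 with dense H3K27me3 it was 0.20, beside 0.15 over all 718 such genes. For the 9 others, which held all 3 calls, it was 0.45, beside -0.05 over all genes outside the dense deciles. Genes not measured for H3K27me3 were counted as outside, Plxna3 among the 9. The median over the 17 was 0.06 when libraries were scaled to sparse windows, which moved that over all measured genes to -0.27.

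In rescue against deleted 4 of the 17 were lower (5.97% of all) and 0 higher (4.49% of all). The lower ones were Sema5a, Slit2, Plxna2 and the Eph receptor gene Epha7, all with spans over 100 kb. Of all measured genes with such spans, 12.1% were lower and 2.95% higher. The median was -0.30 over the 17, with 15 below 0, beside 0.03 over all measured genes. For the 8 with dense H3K27me3 it was -0.25, beside -0.26 over all such genes. For the 9 others, which held all 4 calls, it was -0.55, beside 0.06 over all genes outside the dense deciles. Both sets again include genes not measured for H3K27me3. Plxna2, Slit2 and Sema5a were thus higher in deleted than in floxed and lower in rescue than in deleted, a course taken by 1.57% of all measured genes. Both comparisons share the deleted library, which was the highest of the 3 at 13 of the 17 genes. The share of all measured genes with that library highest was not computed, so this count has no background beside it.

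Plxna2, a receptor for class 3 and class 6 semaphorins (chromosome 1, 194619791 to 194816869), had 52, 69 and 26 H3K4me3 counts, or 80.6, 164 and 65.8 CPM. The deleted library was highest, with ratios of 2.04 (1.40 to 2.98) to floxed and, for rescue against deleted, 0.401 (0.245 to 0.638). Its H3K27me3 ran level, at 1.19, 1.26 and 1.29 CPM per kb. Slit2, the secreted Robo ligand (chromosome 5, 47981291 to 48307735), had 22, 32 and 8 counts and ratios of 2.23 (1.26 to 4.03) and 0.266 (0.106 to 0.590). Its mean count lay just above the 20 needed to be measured.

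Sema5a encodes a semaphorin with thrombospondin repeats (chromosome 15, 32244813 to 32696341). It had 36, 41 and 9 counts, or 55.8, 97.5 and 22.8 CPM, with ratios of 1.75 (1.09 to 2.81) and 0.234 (0.0999 to 0.488). Here the rescue library was also below floxed, at 0.408 (0.173 to 0.864). Its call in deleted against floxed was lost with scaling to sparse windows. Plxna2, Slit2 and Sema5a lie outside the dense deciles of H3K27me3, and each promoter shown above carries 23 to 30 CG dinucleotides.

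Epha7, an EphA receptor gene, had 141, 117 and 64 counts, or 219, 278 and 162 CPM. Rescue stood at 0.582 times deleted (0.423 to 0.797). Ephb3 had 61, 31 and 16 counts and was lower in rescue than in floxed at 0.428 (0.230 to 0.752). With Sema5a it made 2 genes lower in that comparison (3.92% of all measured genes), and 0 were higher (1.92% of all). Ntn4, with 205, 112 and 104 counts, and Plxnb1, with 153, 123 and 90, had no call.

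Windows below the count filter went different ways, at low counts. Sema6d had 17, 23 and 4 H3K4me3 counts and Sema3c 7, 18 and 1, so that the deleted library was highest and the rescue library lowest. Slit3 had 2, 13 and 7, with rescue above floxed, and Sema3g, a secreted class 3 semaphorin gene, had 9, 3 and 11, with the deleted library lowest. With no filter, Sema3c, Sema6d and Slit3 joined the higher genes of deleted against floxed, and Sema3c and Sema6d the lower genes of rescue against deleted, while Sema3g and Efna3 were higher there and Slit3 was higher in rescue than in floxed. At Sema3c and Sema6d the rescue library was therefore low in both marks. At Slit3, a Robo ligand gene, H3K27me3 counts were 3103, 3847 and 5551.

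**Figure D4:**
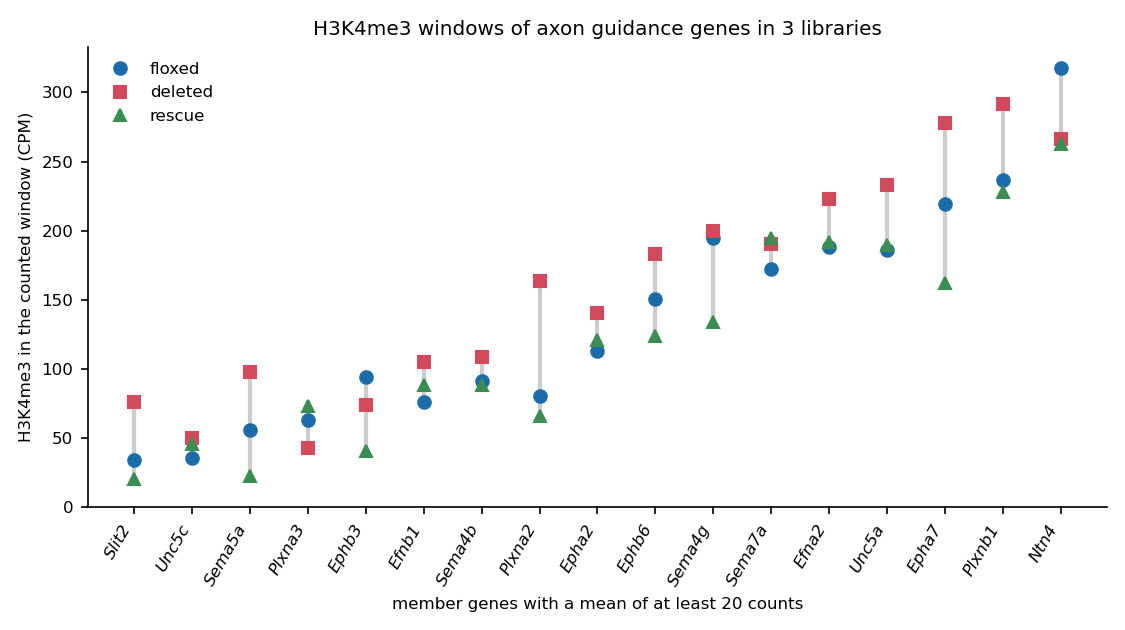
H3K4me3 in the counted window (CPM) for the 17 measured genes in order of mean level, 1 point per library. The deleted library is the highest point at 13 of the 17 genes (the share over all measured genes was not computed), and Plxna2 spans 65.8 to 164 CPM.

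Promoter sequences were found for 57 of the 66 genes, taking the outermost 5′ promoter listed for each. Some listed starts lie well inside the RefSeq span, as at Robo1, Sema3a and Sema4d, so their CG counts are those of an internal start. The 57 promoters held a median of 22 CG dinucleotides in 300 bases. The median was 13 for the 18458 genes of the files with a promoter and 7 for all 27025 genes of the table. At least 20 CG dinucleotides were found in 31 of the 57 (54.4%, beside 35.6% of genes of the files). Of these 31, 14 were measured for H3K4me3, beside 3003 of the 6580 such genes of the files, so the shares were near each other. Of the 26 with fewer, 3 were measured: Epha2, Efnb1 and Plxna3. Among measured genes, 82.4% here and 58.4% of the 5142 of the files had at least 20. CG content alone did not separate the genes, since 11 of the 31 had at most 5 H3K4me3 counts in every library; Epha8, with 56 CG dinucleotides, had 2, 1 and 0. The letters ATTAA on either strand, which hold the ATTA that many homeodomain proteins bind, occurred in 8 of the 57 promoters (14.0%). The share was 24.2% for genes of the files and 27.5% for all 27025 genes of the table, with 1 promoter per gene. Among genes of the files it was 17.9% with dense H3K27me3 and 15.6% with H3K4me3 measured. Epha2 was among the 8.

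**Figure D5:**
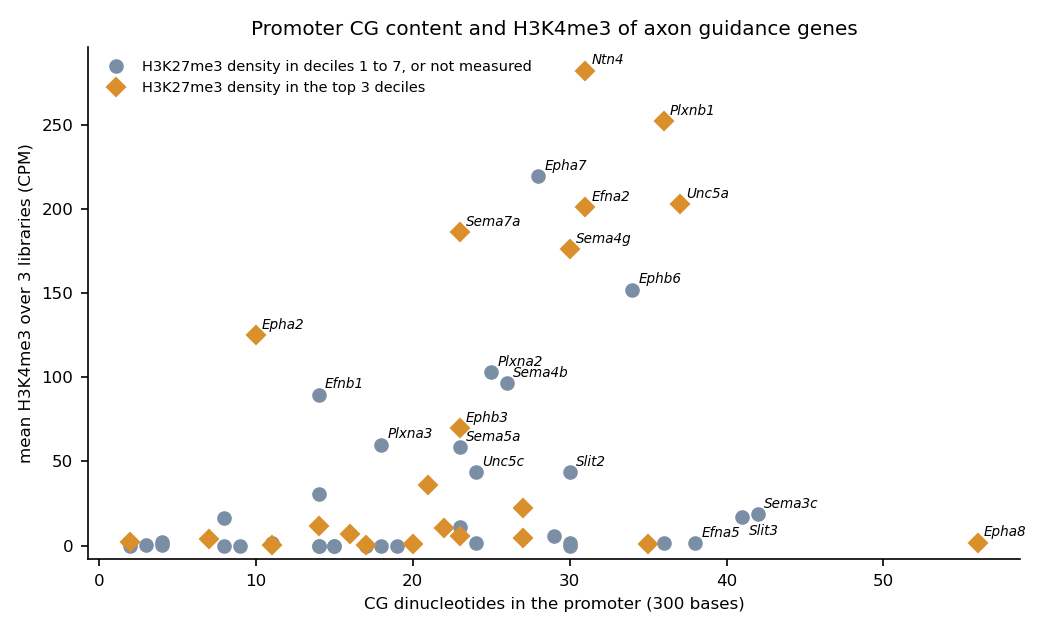
Mean H3K4me3 over 3 libraries (CPM) against the number of CG dinucleotides in the 300-base promoter of 57 genes; diamonds mark genes in the top 3 deciles of H3K27me3 density. Ntn4 and Plxnb1 reach 282 and 252 CPM with 31 and 36 CG dinucleotides, and Epha8 lies near 0 with 56.

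Summits of the Flag immunoprecipitation were counted within 10 kb of the RefSeq spans of these genes. There were 2 of 475 summits in floxed, 1 of 220 in deleted and 1 of 429 in rescue. The share expected from the size of these spans was not computed, so the counts show neither a lack nor an excess. Epha6 held 1 in each library, at positions 60456753, 60456776 and 60456762 of chromosome 16, and Robo2 the other floxed one, at 74360423. The floxed and deleted labels name no tagged protein, so the Epha6 summit was also found without the tag. None of the genes whose marks differed, apart from Epha6, had a summit within 50 kb.

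Other genes of the pathway were read from a list of 23 co-receptors and further ligands and 48 signalling genes, all 71 found in the files. In deleted against floxed, 57 were measured for H3K27me3 and 1 was lower (5.39% of all measured genes), the kinase gene Pak2 with 22, 10 and 29 counts; 0 were higher (4.72% of all), and the median log2 ratio was 0.01. Between rescue and deleted, 7 of the 57 were called lower and 2 higher, beside 11.3% and 7.07% of all measured genes; the median was -0.06. Nrp2, the neuropilin co-receptor of class 3 semaphorins, had 225, 258 and 51 counts, so that rescue stood at 0.119 times deleted (0.0865 to 0.162). Mical3, which encodes an actin-oxidising enzyme of a family that acts below plexins, had 170, 222 and 44 counts and stood at 0.120 (0.0845 to 0.166). The actin regulator Enah was among the higher ones, with 643, 544 and 2319 counts. For H3K4me3, 24 were measured; Rgma, a ligand of the receptor neogenin, was the 1 higher gene in deleted against floxed, with 34, 38 and 19 counts, a level 1.71 times the floxed one (1.05 to 2.81), and 0 were lower, beside 3.02% higher and 4.39% lower of all measured genes. It was lower again in rescue against deleted, at 0.532 (0.290 to 0.947), where 2 of the 24 were lower and 2 higher, beside 5.97% and 4.49% of all.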

How the data were processed

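Histone counts and Flag summits of 9 ChIP-seq libraries were used, 1 per group. For each histone library the authors deposited raw counts per gene with the length counted. Per the submitters' processing notes featureCounts, MACS2 and the mm10 build were used, without versions; no source used here gives the aligner. For each Flag library the authors deposited MACS2 summits, each with its −log10 score, used here only to rank summits within a list. No input library was used. Rows without a symbol (568 of 27179, 0.608% to 0.739% of counts) were left out. The genes, families, lists and the rule for naming genes (every called member, family extremes of density, the 10 highest H3K4me3 windows, both-mark genes, summit genes, other pathway genes called in deleted against floxed) were chosen with earlier results of these data known. Nrp2, Mical3, Enah, Slit3, Sema3g, Epha8 and Plxna3 were named after their values were seen.

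Counts were divided by the named-gene total of their library. Ratios carry exact conditional binomial (Clopper-Pearson) intervals, and shares carry Wilson intervals. Both cover counting error only, since each group has 1 library. Both treat reads as independent, and PCR reads without molecular identifiers are not independent molecules, so the intervals may be too narrow. For log2 ratios a prior count of 1 was added, scaled to library size. Gene positions were matched on the Entrez identifier to RefSeq GRCm38.p6 for 66 of 66 genes; where promoters on opposite strands overlapped, all 1271 pairs were reverse complements. The call rule was tested on simulated data. Alternatives were other scalings, count filters, a larger ratio, centring by density decile and other summit windows. Python 3.11.15, scipy 1.17.1, edgeR 4.0.16 (TMM factors) and DESeq2 1.42.0 (size factors) were used; no count model was fitted.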

Additional observations from a re-analysis of the deposited data

How the results depend on the processing

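No paired analysis was possible because each group has 1 library and the labels carry no replicate numbers; for the same reason no library could be left out. With scaling to sparse genes or windows, chosen after seeing the data, the H3K27me3 median of the genes went from 0.02 to -0.12 in deleted against floxed and from -0.10 to 0.02 in rescue against deleted; the H3K4me3 median of rescue against floxed went from -0.06 to 0.03 with no filter. The size of a call mattered most for H3K27me3: with a ratio of at least 2 the genes lower in deleted against floxed numbered 0, those in rescue against deleted 2 lower (Sema4d and Efnb3) and 1 higher (Ephb1), and those in rescue against floxed 0 in both directions. Centring on the density decile ended the call of Ntn3 in both comparisons (log2 ratios -0.18 and 0.27). It also added calls: Sema6b lower in deleted against floxed, and Epha6 and Plxnc1 higher in rescue against deleted. Sema3d became higher in rescue against floxed.

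H3K4me3 depended on the count filter. With a mean of at least 100 counts 3 genes were left, and 0 were higher in deleted against floxed, 1 (Epha7) lower in rescue against deleted and 0 lower in rescue against floxed. With no filter 6 were higher in deleted against floxed, 2 higher in rescue against deleted (Efna3 and Sema3g) and 1 (Slit3) higher in rescue against floxed. Sparse scaling made 1 gene (Plxna3) higher in rescue against deleted. Over all measured genes it moved the H3K27me3 calls of deleted against floxed from 572 lower and 500 higher to 1065 and 264, and the H3K4me3 calls from 293 and 202 to 942 and 59, against 403 and 139 with TMM. In rescue against deleted it moved them from 1196 lower and 750 higher to 886 and 1105 for H3K27me3, and from 399 and 300 to 260 and 601 for H3K4me3. In rescue against floxed the H3K4me3 calls went from 262 and 128 to 471 and 63, and with TMM to 341 and 91. Genes with both marks numbered 2 in the top decile of density. The number of Flag summits at the genes was the same under each alternative run, and no called gene changed direction under any. The causes were not tested.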

Other observations

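At Plxna3, a semaphorin receptor gene on chromosome X, both marks were counted but H3K27me3 fell below the filter, with 17, 22 and 7 counts in floxed, deleted and rescue. Its H3K4me3 window held 41, 18 and 29 counts, so the deleted library was the highest in one mark and the lowest in the other. The H3K4me3 ratio of rescue to deleted was 1.72 (0.921 to 3.28), whose interval includes 1, and the H3K27me3 ratio was 0.192 (0.0693 to 0.465). With no filter the H3K27me3 of Plxna3 was called lower in the rescue library.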
